A study of Mus musculus with 42 samples.

Results

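The libraries described here follow the microRNAs of mouse embryonic stem cells (ESCs) as they leave the naive state for epiblast-like cells (EpiLCs). They are 3 of the 42 libraries of the study and 3 of its 10 small RNA libraries, chosen as the small RNA samples of the EpiLC course: 0 h in 2i/LIF, and 6 h and 48 h in EpiLC induction medium. All 3 came from KH2-ISY1, an ESC line carrying a Flag-tagged transgene for the splicing factor ISY1 that responds to doxycycline (Dox), and all 3 were grown without Dox. Every group thus carries the uninduced transgene, and each time has 1 library, so no value below has a replicate error and no test was possible. The table held 256 microRNAs, of which 205 had a mean share of at least 0.01% of the column total over the 3 libraries and entered the counts.

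MicroRNAs are cut from hairpins, loaded into Argonaute proteins and pair with messenger RNAs through the seed, bases 2 to 8 of the mature strand, which lowers the output of those messengers. Mouse ESCs are known for the miR-290 cluster, several of whose members share their seed with miR-302 members and which favours rapid division, and primed epiblast cells for the miR-302 cluster. The let-7 family is held back in ESCs by LIN28, which binds its precursors, and builds up in differentiated cells.

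The seeds below are in capitals, with sequences 5′ to 3′ from RefSeq (GRCm38.p6). They are shown because groups described below share them, and these are not all the largest groups. The first 5 share the seed AAGUGCU, which unites the miR-290 and miR-302 clusters.
miR-291a-3p: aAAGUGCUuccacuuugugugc
miR-294-3p: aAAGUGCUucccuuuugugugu
miR-295-3p: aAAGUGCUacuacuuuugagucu
miR-302b-3p: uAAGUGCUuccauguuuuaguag
miR-302d-3p: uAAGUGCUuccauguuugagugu

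The other strand of the miR-290 hairpins carries the seed CUCAAAC in the 2 most abundant microRNAs of the course.
miR-292a-5p: aCUCAAACugggggcucuuuug
miR-293-5p: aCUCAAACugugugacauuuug

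The next 6 share AAAGUGC, the seed of the miR-17 family, and come from 3 paralogous clusters.
miR-17-5p: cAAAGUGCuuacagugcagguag
miR-20a-5p: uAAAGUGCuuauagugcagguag
miR-20b-5p: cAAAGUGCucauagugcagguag
miR-106a-5p: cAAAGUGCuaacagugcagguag
miR-93-5p: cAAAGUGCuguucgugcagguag
miR-106b-5p: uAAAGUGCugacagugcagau

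Members of the let-7 family, shown for the change between 6 h and 48 h, share GAGGUAG.
let-7a-5p: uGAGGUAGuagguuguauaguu
let-7d-5p: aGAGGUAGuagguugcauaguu
let-7g-5p: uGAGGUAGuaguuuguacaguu

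The deposited table has 1 value per microRNA and does not say which strand of the hairpin was counted, so a seed family below groups rows by the annotated strand that carries the seed.

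The 0 h library stood apart from the other small RNA libraries of the line, and every comparison with it rests on that 1 library. Its rank correlation with the 6 h library was 0.68 and with the 48 h library 0.71 (Spearman, across 256 microRNAs, which are not independent replicates), against 0.96 between 6 h and 48 h. It held the highest or the lowest share of the 7 libraries for 100 of the 205 microRNAs (48.8%), against 15.1% to 38.05% in the other 6. These counts are not like for like. Libraries that resemble each other, as 6 h and 48 h or serum/LIF with and without Dox (0.955) do, lower each other's count. Some microRNAs, such as miR-5126, also passed the filter only through their 0 h share. Others in groups counted below, such as miR-302a, miR-18b and miR-23a, had 0 h shares under 0.01% and passed through later shares. Medium, time and library cannot be told apart in the 0 h library. Column totals were 392727 at 0 h, 238175 at 6 h and 229100 at 48 h. Of 91 low values at 0 h (up to 35.8), 95.6% lay within 0.1 reads of a whole multiple of 0.497. If that step is 1 read, the 0 h total is about 0.789 M reads. The depth of the other 2 libraries is unknown.

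Because the totals differ and 1 cluster fills much of each column, ratios are given as log2(value + 1) from the deposited values, and shares of the column total stand beside them. On going from 0 h to 6 h most microRNAs stood higher. At least 2-fold apart (called past 2-fold below), 103 of the 205 were higher at 6 h (50.2%) and 47 were lower (22.9%), with a median log2 ratio of 1.00. As shares of the total the counts were 127 higher (62.0%) and 40 lower (19.5%), with a median of 1.70. The split depends on the scaling: of the microRNAs past 2-fold, 68.7% were higher as deposited, 76.0% as shares and 44.6% under a median-ratio scaling (54 higher and 67 lower). At 48 h against 0 h, 97 were higher (47.3%) and 46 lower (22.4%), with a median of 0.90, and as shares 129 were higher (62.9%) and 35 lower (17.1%), with a median of 1.64. Here 67.8% of those past 2-fold were higher as deposited, 78.7% as shares and 46.3% under median-ratio scaling (56 higher and 65 lower). The ratio of 2 microRNAs within 1 library does not depend on any of these scalings, and such ratios are given below where members of a group diverge. The median ratios against 0 h of miR-302, miR-17-92, miR-106a-363, let-7, miR-183-96-182, miR-26, miR-23-27-24, miR-200 and the miR-130 family were above 0 as deposited, as shares, as shares without the miR-290 cluster and under median-ratio scaling.

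Between 6 h and 48 h far fewer microRNAs differed. In that comparison 16 of the 205 microRNAs were past 2-fold higher (7.80%) and 8 lower (3.90%), with a median of 0.01, and as shares 16 were higher (7.80%) and 7 lower (3.41%), with a median of 0.07.

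**Figure D1:**
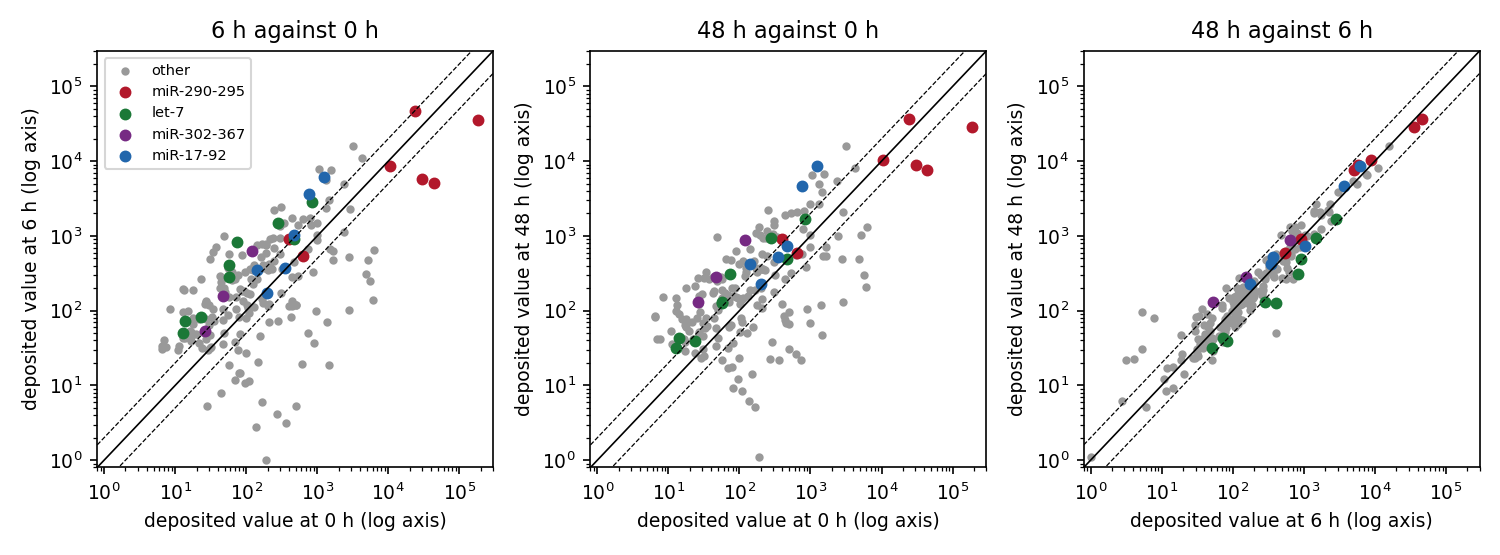
Deposited value of each of the 205 microRNAs in 1 library against another, on log axes, with the solid line at equal values and dashed lines at 2-fold. Points scatter widely in the 2 plots against 0 h and lie close to the line at 48 h against 6 h, where let-7 members (green) sit below it.

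The miR-290 cluster, on chromosome 7 (chr7:3218626-3220841, GRCm38.p6), supplied 74.8% of the 0 h column, 43.1% at 6 h and 40.9% at 48 h. The order of its members changed with the loss of share. MiR-292 stood at 184666 at 0 h, 35262 at 6 h and 28632.9 at 48 h, while its neighbour miR-293 stood at 23972.1, 46298.2 and 36873.9. Within each library, where the scalings named above cancel, miR-292 was thus 7.70 times miR-293 at 0 h. It was 0.762 times miR-293 at 6 h and 0.777 times at 48 h. The other libraries of the line fell on both sides of this change, at 4.93 in serum/LIF, 3.57 in serum/LIF with Dox, 0.753 in embryoid bodies of day 1 and 0.744 in those of day 4. A high ratio was thus also present in 2 other ESC libraries, though lower than at 0 h.

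MiR-291a stood at 43611.4, 5088.3 and 7650.2 at 0, 6 and 48 h. MiR-294 stood at 30197.5, 5726.0 and 8763.5. Both were past 2-fold lower at 6 h, with log2 ratios of −3.10 and −2.40, as was miR-292 (−2.39). MiR-295 stood at 10427.3, 8748.8 and 10362.4. MiR-290 stood at 637.8, 540.9 and 589.9, and both were within 2-fold of 0 h. MiR-291b, the least abundant member at 0 h, stood at 398.5, 908.9 and 901.6 and was past 2-fold higher. Of the 7 members, 1 was higher and 3 were lower past 2-fold at 6 h, beside 50.2% and 22.9% of all 205, and the median was −0.25 as deposited and 0.47 as shares, so that no direction holds for the cluster as a whole. Between 6 h and 48 h no member was past 2-fold.

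**Figure D2:**
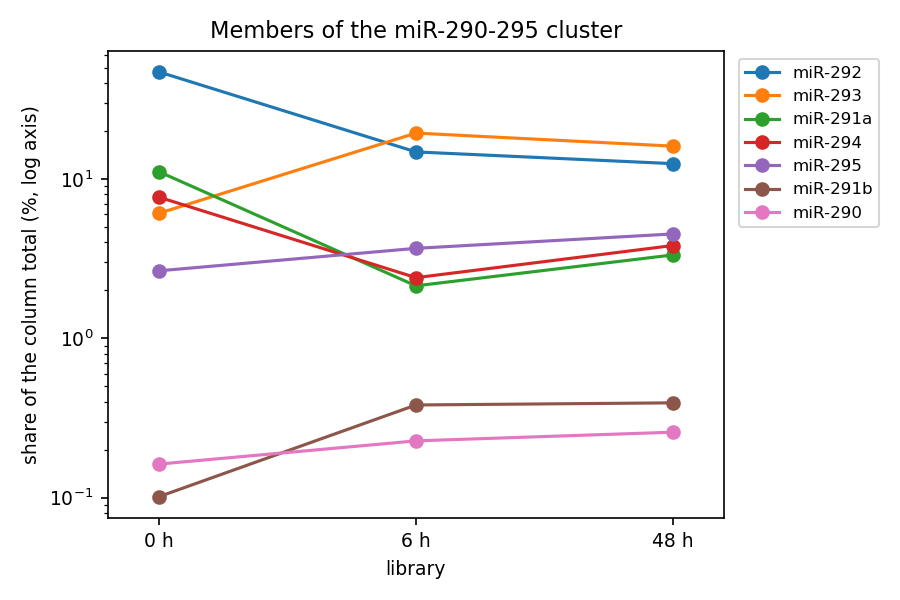
Share of the column total held by each member of the miR-290 cluster (log axis) in the 0 h, 6 h and 48 h libraries, 1 line per member. The line of miR-292 crosses that of miR-293 between 0 h and 6 h, and lines run near level from 6 h to 48 h.

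The miR-302 cluster (chr3:127545228-127545689), which lies within the bounds of the Larp7 gene, was low at 0 h and higher at each later time. MiR-302b, its most abundant member, stood at 119.9 at 0 h, 630.6 at 6 h and 885.7 at 48 h. MiR-302d stood at 47.3, 154.9 and 278.0. MiR-302a stood at 25.9, 52.8 and 129.5. The cluster held 0.051% of the column at 0 h, 0.356% at 6 h and 0.570% at 48 h, so its 48 h sum remained far under the 40.9% of the miR-290 cluster. All 3 members above the filter were past 2-fold higher at 6 h and at 48 h against 0 h (median log2 1.69 and 2.53), beside 50.2% and 47.3% of all 205, and 1 of 3, miR-302a, was past 2-fold higher at 48 h against 6 h (1.28). The fourth row, miR-302c, stayed below the filter at 8.0, 8.7 and 13.8. In embryoid bodies of day 4 the same cluster held 4.16% of the column. The 5 rows matched to an annotated strand with the AAGUGCU seed together held 21.5%, 8.54% and 12.2%. Of these, miR-302b and miR-302d were past 2-fold higher at 6 h and miR-291a and miR-294 past 2-fold lower. For miR-302a only the 5p strand was matched, so its row is not in this group.

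Paralogous clusters of the miR-17 family, known to promote division and survival, stood higher in EpiLC medium. MiR-17-92 (chr14:115043671-115044506) held 0.806% at 0 h, 4.94% at 6 h and 6.61% at 48 h. This sum includes the whole rows of miR-19b and miR-92a, which also have hairpins in miR-106a-363 on chromosome X. MiR-20a stood at 1250.2, 6163.3 and 8535.6. MiR-17 stood at 756.7, 3683.2 and 4685.4. Both were past 2-fold higher at 6 h and at 48 h, but as deposited the miR-19 members of the cluster, which carry another seed, were not. As a share miR-19b was past 2-fold higher at 48 h (1.38). MiR-19b stood at 347.8, 370.9 and 527.6. MiR-19a stood at 199.0, 172.4 and 228.7. The ratio of miR-20a to miR-19b within a library was 3.59 at 0 h, 16.6 at 6 h and 16.2 at 48 h. It was 2.36 in serum/LIF, 4.16 with Dox, 6.22 in embryoid bodies of day 1 and 17.6 in those of day 4. Of its 6 members, 4 were past 2-fold higher at 6 h and 3 at 48 h against 0 h, beside 50.2% and 47.3% of all 205, so the 48 h count was at the background. As shares the counts were 4 and 5, beside 62.0% and 62.9%.

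All 4 rows assigned to miR-106a-363 (chrX:52741693-52742567) were past 2-fold higher at both times, with medians of 2.09 and 2.64, beside the same 50.2% and 47.3%. MiR-19b and miR-92a also have hairpins in this span, but their rows were counted with miR-17-92. MiR-363 stood at 168.7, 791.0 and 1086.2. MiR-20b stood at 191.0, 745.6 and 1302.9. The summed share of the 4 rows assigned to the cluster went from 0.118% to 0.825% and 1.32%. MiR-106b-25 (chr5:138165321-138165818), within Mcm7, a helicase gene, was split. MiR-25 stood at 1312.4 at 0 h, 5632.0 at 6 h and 4888.3 at 48 h. MiR-93 stood at 1330.3, 2359.5 and 2640.1. MiR-106b stood at 2404.5, 1113.9 and 1008.8, and was the member highest at 0 h. The ratio of miR-25 to miR-106b was 0.546 at 0 h, 5.06 at 6 h and 4.85 at 48 h, against 2.28 to 8.15 in the 4 other libraries of the line. The 6 rows with the AAAGUGC seed summed to 1.53%, 6.03% and 8.14% of the column, and 4 of them were past 2-fold higher and 1, miR-106b, lower at 6 h, beside 50.2% and 22.9% of all 205. As shares 5 were higher and none lower, since the log2 ratio of miR-106b was −1.11 as deposited and −0.39 as a share.

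**Figure D3:**
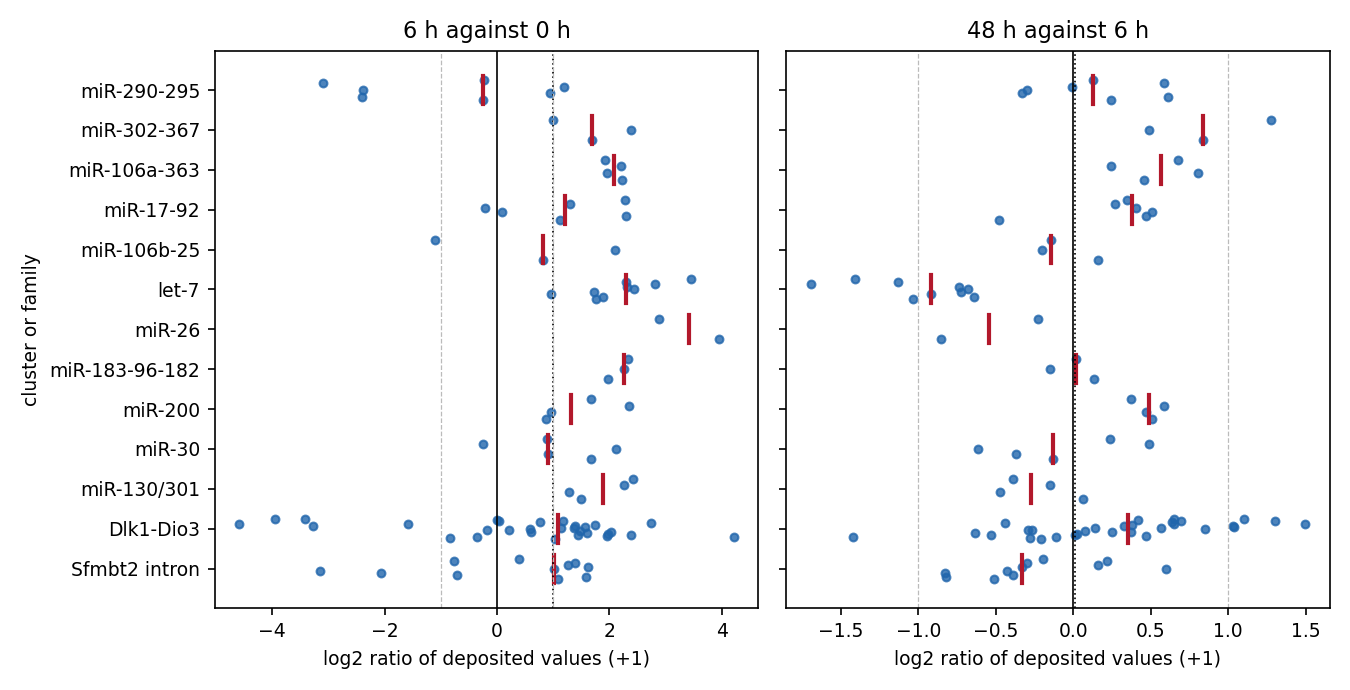
Log2 ratio of deposited values (+1) of each microRNA above the filter, by cluster or family, for 6 h against 0 h and 48 h against 6 h; red bars are group medians, the dotted line the median of all 205 and dashed lines 2-fold. The let-7 points all lie below 0 at 48 h against 6 h, and Dlk1-Dio3 spans from −4.58 to 4.22 at 6 h against 0 h.

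Each of the 9 let-7 members above the filter was higher at 6 h than at either other time. Let-7g stood at 845.3 at 0 h, 2810.5 at 6 h and 1696.5 at 48 h. Let-7a stood at 73.6, 822.6 and 309.2. Let-7d stood at 57.2, 409.9 and 125.9. The 6 h value was the highest for each of these, and the family summed to 0.472%, 2.93% and 1.66% of the column. At 6 h against 0 h, 8 of the 9 were past 2-fold higher (median 2.29), beside 50.2% of all 205. Let-7b, below the filter, went the other way, at 20.9, 11.5 and 7.6. At 48 h against 6 h 9 of 9 were lower, 4 of them past 2-fold, with a median of −0.92 as deposited and −0.86 as shares, beside 3.90% past 2-fold lower among all 205. At 48 h 7 of 9 were past 2-fold above 0 h, beside 47.3%. Let-7e, let-7j and miR-98 had 0 h shares under 0.01% and passed the filter through later shares, let-7j only with its 6 h share. Without let-7j, the 8 members with the GAGGUAG seed had 7 past 2-fold higher at 6 h against 0 h. All 8 were lower at 48 h against 6 h, 4 of them past 2-fold.

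Polyadenylated RNA of the same hours and line came from separate libraries of 6.35, 9.16 and 6.17 M reads. Lin28a, which encodes the let-7 binding protein, stood at 237.4 at 0 h, 520.8 at 6 h and 2916.8 at 48 h, and its paralogue Lin28b at 85.2, 32.7 and 191.2. Lin28a is itself a let-7 target. Of the 11 listed let-7 targets, 4 were higher and 1 was lower past 2-fold at 6 h, beside 10.6% and 14.2% of 16149 transcripts. At 48 h against 6 h 3 were higher and 2 lower, beside 14.9% and 13.6%. Hmga2, which encodes a chromatin protein, stood at 220.9, 799.4 and 210.6. Of the 13 listed miR-290 and miR-302 targets, 3 were higher and 1 lower at 6 h, and 2 higher and 3 lower at 48 h against 0 h, beside 12.0% and 13.8%. Among them the cell-cycle inhibitor gene Cdkn1a stood at 1478.3, 555.4 and 580.5. Lats2, which encodes a kinase, stood at 18.3, 60.7 and 75.2. The naive factor Klf4 stood at 2519.1, 206.5 and 31.9, but Zfp42, another naive marker, stood at 4519.1, 7292.9 and 1056.6. Of 6 listed naive markers 2 were past 2-fold lower at 6 h, beside 14.2% of all transcripts. At 48 h against 0 h all 6 were, beside 13.8%. Fgf5, a growth factor gene of the formative epiblast, stood at 0, 2.4 and 482.3. Of 5 listed formative markers 3 were past 2-fold higher and 1 lower at 6 h, and all 5 higher at 48 h against 0 h. The polyA libraries thus carried naive markers at 0 h and formative markers at 48 h. Whether they came from the same cultures is not given in the sources used here.

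**Figure D4:**
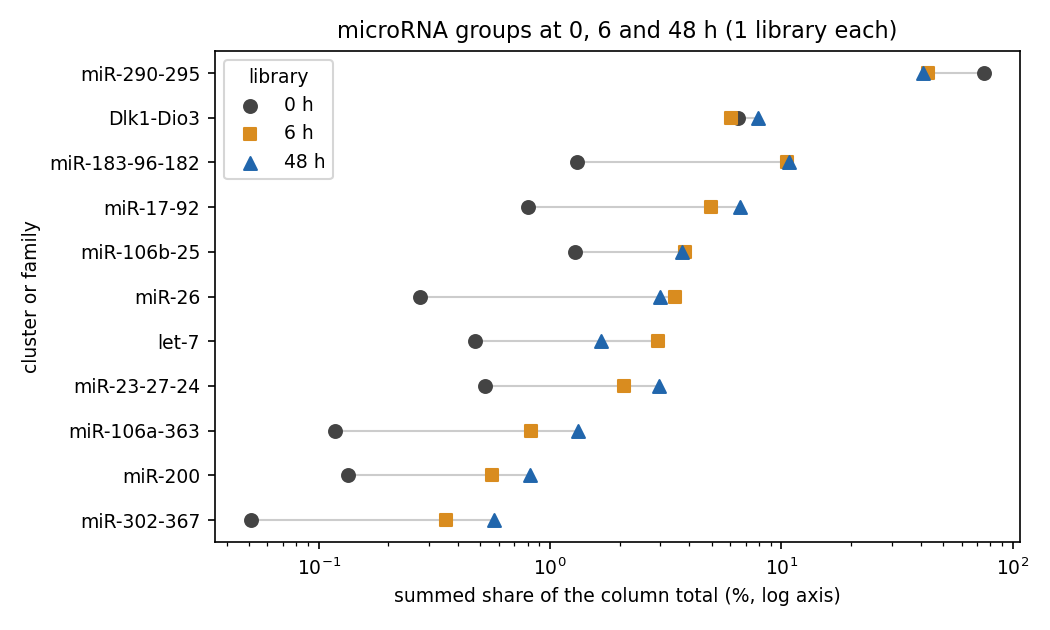
Summed share of the column total (log axis) of 11 clusters and families in the 0 h, 6 h and 48 h libraries. The miR-290 cluster is at 74.8% at 0 h and near 41 to 43% later, miR-183-96-182 moves from 1.31% to over 10%, and let-7 is highest at 6 h.

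The miR-183-96-182 cluster (chr6:30165918-30169737), known from sensory organs, held the largest sum after the miR-290 cluster among the listed groups at 6 h and 48 h. MiR-182 stood at 3143.3 at 0 h, 15788.7 at 6 h and 15943.6 at 48 h. MiR-183 stood at 1566.7, 7538.5 and 6789.4. MiR-96 stood at 441.3, 1742.0 and 1908.7. All 3 were past 2-fold higher at both times and within 2-fold between them, and their sum went from 1.31% to 10.5% and 10.8% of the column. In the other 4 libraries of the line it was between 3.31% and 8.28%, all above the 0 h value.

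MiR-26a, often high in differentiated tissue, stood at 1050.3, 7746.0 and 6599.4. MiR-26b, within Ctdsp1, stood at 31.3, 498.9 and 275.3. Both were past 2-fold higher than at 0 h at both times. Ctdsp1 transcript stood at 129.6, 367.9 and 105.3. All 5 members of the miR-23-27-24 clusters, which include miR-27b (1475.1, 3015.9 and 3903.7) and miR-24 (243.3, 683.1 and 1176.7), were past 2-fold higher at both times, beside 50.2% and 47.3%. The miR-200 family, which restrains the repressors of E-cadherin, had 2 of 4 members above the filter past 2-fold higher at 6 h, at the background of 50.2%, and 4 of 4 at 48 h, beside 47.3%. As shares 4 of 4 were higher at both times, beside 62.0% and 62.9%. MiR-200b stood at 63.7, 329.8 and 495.7, and the family summed to 0.134%, 0.563% and 0.816%. The miR-130 family had 4 of 4 members past 2-fold higher at 6 h and 3 of 4 at 48 h, beside the same 50.2% and 47.3%. MiR-23a, miR-23b, miR-26b, miR-130b, miR-301a and miR-301b had 0 h shares under 0.01%, so they passed the filter through their later shares. MiR-7a, 1 of the 10 most abundant microRNAs, stood at 4269.2, 11113.3 and 8039.2.

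The largest ratio at 6 h and at 48 h against 0 h belonged to miR-335, which lies within the imprinted gene Mest (chr6:30741299-30741396). It stood at 48.2 at 0 h (95% exact Poisson interval 39.1 to 58.9, counting error only), 1011.5 at 6 h and 969.1 at 48 h, a log2 ratio of 4.36 at 6 h. Mest transcript stood at 7.0, 64.9 and 295.6. The microRNA was thus level between 6 h and 48 h (−0.06) while its host transcript was higher at 48 h (2.17). Of 20 transcripts listed as hosts, 3 were past 2-fold higher and 1 lower at 6 h, beside 10.6% and 14.2% of all transcripts. Mcm7, host of miR-106b-25, stood at 2456.5, 2300.0 and 2732.7. Larp7, whose bounds contain the miR-302 cluster, stood at 533.0, 693.5 and 747.8. Both transcripts stayed within 2-fold at all 3 times, while members of the clusters within their bounds did not. Strands of genes and hairpins were not compared, so Larp7 is not shown to be a host of miR-302. Copz2, host of miR-152, stood at 80.0, 16.7 and 9.7, where miR-152 stood at 201.0, 116.6 and 201.8.

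Next in size at 6 h came miR-543 of the Dlk1-Dio3 cluster, at 37.3, 711.8 and 265.4. MiR-128, a microRNA of neurons, stood at 33.8, 612.4 and 325.4. The neighbours miR-741 and miR-871 on chromosome X stood at 12.9, 195.2 and 146.5, and at 13.4, 188.5 and 120.5. All 4 were lower at 48 h than at 6 h, miR-543 past 2-fold. At 48 h the largest ratio after miR-335 belonged to miR-450b, at 8.4, 104.3 and 151.2. MiR-34c, of a family that p53 induces, stood at 6.5, 34.1 and 85.3, the last past 2-fold above 6 h. Its mean share passed the filter only because of that 48 h value. MiR-15b, a repressor of cyclins, stood at 17.9, 191.6 and 198.8 and was level between 6 h and 48 h.

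At the other end, several microRNAs that were well counted at 0 h were low in both EpiLC libraries. MiR-378a stood at 6098.0 at 0 h, 137.8 at 6 h and 209.8 at 48 h. MiR-378d stood at 2838.3, 102.2 and 131.9. MiR-378c stood at 1456.2, 18.9 and 47.2. The 3 were thus past 2-fold lower at both times, with log2 ratios between −6.19 and −4.42. MiR-5126 stood at 191.0, 1.0 and 1.1 and had the lowest ratio of all at both times (−6.58 and −6.51), near the smallest value of each later library. MiR-3473e stood at 357.7, 3.1 and 21.6. MiR-5115 stood at 503.0, 5.3 and 30.3. Both were past 2-fold higher at 48 h than at 6 h, yet far below 0 h. Like miR-5126, they passed the filter only through their 0 h share. MiR-2137 stood at 736.3, 51.0 and 22. MiR-320, known to be made without Drosha, stood at 970.1, 99.3 and 68.0. Both were lower at each later time.

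Base composition moved with the ratios against 0 h. The mature sequences of miR-335, highest in ratio, and of miR-5126 and miR-2137, low in ratio, are shown with their seeds in capitals because they differ in G+C content, at 33.4% (mean of both strands of miR-335), 100% and 85.7%.
miR-335-5p: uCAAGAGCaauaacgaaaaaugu
miR-335-3p: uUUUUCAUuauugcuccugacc
miR-5126: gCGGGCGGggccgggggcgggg
miR-2137: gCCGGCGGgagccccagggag

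The mean G+C content of the annotated mature strands was available for 178 of the 205 microRNAs (86.8%). Across them it had a Pearson r of −0.57 (Spearman rho −0.45) with the log2 ratio at 6 h and of −0.59 (rho −0.47) with that at 48 h, all ratios sharing the 0 h library, but of 0.08 (rho −0.02) at 48 h against 6 h. MicroRNAs past 2-fold higher at 6 h had a median G+C of 45.2%, and those past 2-fold lower 59.1%. Some microRNAs of high G+C among the 178, such as miR-5126 and miR-3473e (61.9%), passed the filter only through their 0 h share. These are low in ratio by that selection, and no correlation was made without them. The part of base composition in the results against 0 h was not tested.

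**Figure D5:**
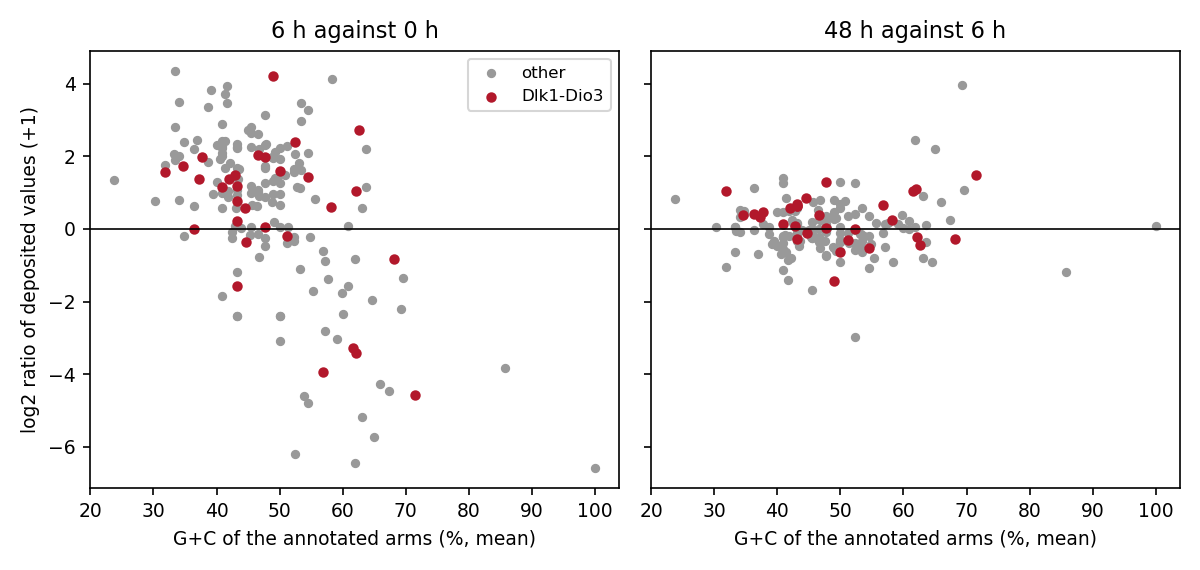
Mean G+C content of the mature strands of 178 microRNAs against the log2 ratio of deposited values (+1) at 6 h against 0 h and at 48 h against 6 h, with Dlk1-Dio3 members in red. The cloud slopes down on the left (r −0.57) and is flat on the right (r 0.08).

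The Dlk1-Dio3 cluster, an imprinted array of hairpins on chromosome 12 (chr12:109563692-109743795), held 6.48%, 6.06% and 7.91% of the column. Of 38 measured members 30 were above the filter, and at 6 h 16 of these were past 2-fold higher and 5 lower, near the background of 50.2% and 22.9%. MiR-370 stood at 6205.0 at 0 h, 641.1 at 6 h and 1313.4 at 48 h. MiR-134 stood at 5128.4, 480.1 and 1031.5. MiR-127, antisense to the Rtl1 gene, stood at 4856.2, 312.5 and 490.7. These 3, the highest of the cluster at 0 h, were past 2-fold lower at both times. MiR-379 stood at 532.3, 1384.0 and 2049.0. MiR-411 stood at 193.0, 789.8 and 1022.9, and both were past 2-fold higher at both times. The ratio of miR-370 to miR-379 within a library was 11.7 at 0 h, 0.463 at 6 h and 0.641 at 48 h. It lay between 0.256 and 0.821 in the other 4 libraries. Within the cluster G+C content had a Pearson r of −0.48 and a weaker Spearman rho of −0.28 with the ratio at 6 h (n = 30). Between 6 h and 48 h 5 of the 30 were past 2-fold higher and 1, miR-543, lower, beside 7.80% and 3.90% of all 205, with a median of 0.35.

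Other changes between 6 h and 48 h were few. MiR-6240 stood at 27.9, 5.3 and 97.4. MiR-1957a stood at 44.3, 7.9 and 80.5, and these had the 2 largest ratios of that comparison (3.97 and 3.19). Both passed the filter only through their 48 h share, and their 6 h values were low, with 0.8 the smallest value of that library. MiR-3074, whose hairpins overlap those of miR-24 on the opposite strand, stood at 127.4, 402.5 and 49.8 and had the lowest ratio (−2.99). MiR-125a, which shares its locus with let-7e, stood at 57.7, 567.0 and 268.3. Of 22 microRNAs measured and listed by name for the Sfmbt2 intron array, 11 were above the filter. At 6 h 6 of these 11 were past 2-fold higher and 2 lower, near the background of 50.2% and 22.9%. At 48 h against 6 h none of them was past 2-fold. No listed microRNA was placed within Sfmbt2 here, and the hairpins of the list with a location lay on chromosomes 7 and 9.

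Marker microRNAs of other cells were present at low summed shares, and 6 of the 7 lists had higher summed shares at both later times than at 0 h. Shares of all 205 microRNAs had median log2 ratios of 1.70 and 1.64 in the same comparisons. Neural markers went from 0.096% to 0.690% and 0.595%, mainly miR-9 (215.4, 906.6 and 946.0) and miR-128, whereas the neuron-defining miR-124 stood at 22.4, 7.3 and 10.0. Fibroblast markers went from 0.879% to 1.47% and 1.54%, with miR-21a at 249.8, 2198.9 and 2256.4 but miR-143 at 1658.7, 479.0 and 540.1. Markers within a list thus went opposite ways. The endothelial marker miR-126 stood at 88.6, 554.4 and 628.0. The blood marker miR-142 stood at 48.8, 198.4 and 249.7. Muscle, liver and endoderm, and epithelial lists stayed at or under 0.110% in every library. In the polyA libraries the feeder collagen Col1a1 stood at 17.4, 8.3 and 4.4 and Col1a2 at 0, 0.6 and 0.9, while Vim stood at 71.3, 1523.8 and 192.9. The part of such cells in the results was not tested, and fewer cells of a type cannot be told apart from less RNA per cell.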

How the data were processed

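Small RNA was sequenced in 10 libraries, of which 3 enter the comparisons, and polyA RNA of the same hours is set beside them. The labels name Trizol extraction, a New England Biolabs small RNA kit and a TruSeq stranded polyA kit. Per the submitters' processing notes, Bowtie and the builds GRCm38 and mm9 were used, without version or role; the counter, microRNA reference and normalization are not given in the sources used here. The deposited values are signal on a scale the authors did not state; in the polyA columns they are whole reads divided by 1 factor per library, as judged from their steps.

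The column named for both 6 h and 0 h was read as 6 h. Ratios were taken as log2(value + 1) as deposited and as shares of the column total, with a filter of a mean share of 0.01% and a call at 2-fold; transcripts needed a mean of 1. With 1 library per time, nothing was tested. Scripts (Python 3.11.15, pandas 2.3.3, numpy 2.4.6, scipy 1.17.1) were tested on simulated data. Named were the 10 highest by mean share, the 8 largest rises and 8 largest falls per comparison, up to 4 members per list, and seed families of at least 3 members; miR-19a, miR-127, miR-291b, miR-379, miR-411 and the transcripts were chosen after their values were seen. Strand ratios were planned but could not be formed, since rows do not separate strands. Members and lists were chosen with earlier results of these data known. RefSeq (GRCm38.p6) matched 219 of 256 names. Alternatives were median-ratio scaling, shares without the miR-290 cluster, a pseudocount of 10, no filter and a filter of 0.1%.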

Additional observations from a re-analysis of the deposited data

How the results depend on the processing

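Counts past 2-fold against 0 h moved with the scaling, and with the filter because it sets how many microRNAs are counted. Under median-ratio scaling 54 microRNAs were higher at 6 h and 56 at 48 h. A filter of 0.1% leaves 89 microRNAs. Of these, 66 were past 2-fold at 6 h (48 higher and 18 lower) and 64 at 48 h (46 higher and 18 lower). Between 6 h and 48 h 6 were past 2-fold (3 higher and 3 lower). Among those past 2-fold at 6 h, 72.7% were higher, beside 68.7% with the main filter. Shares without the miR-290 cluster gave 75 higher and 54 lower at 6 h, and 71 higher and 53 lower at 48 h. With the 0.1% filter, which leaves fewer members, the median of miR-15/16 at 6 h against 0 h became −0.0701, and that of the fibroblast markers −1.18 at 6 h and −1.47 at 48 h. Medians of miR-106b-25 and miR-30 at 6 h were −0.10 and −0.01 under median-ratio scaling, and that of the Sfmbt2 intron array at 48 h against 0 h was −0.27. No paired analysis was possible because each time has 1 library. The 0 h library alone decides every comparison with 0 h, and its interval covers counting error only.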
